A study of Homo sapiens with 4 samples.

Results

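The replication-dependent histone genes were followed in NK-92 cells, a line of human natural killer (NK) lymphocytes grown with interleukin 2 (IL-2). They were taken as every gene row whose symbol starts with H2AC, H2BC, H3C or H4C and a digit, together with the linker histone genes H1-1 to H1-6, and with at least 10 counts in 1 library. Of 84 matching symbols, 13 were pseudogenes and 5 had fewer counts, which left 66 of 61860 gene rows. They comprised 65 histone genes (5 H1, 16 H2A, 18 H2B, 12 H3 and 14 H4) and 1 antisense RNA, H2BC6-AS1, which codes for no histone. Just below the limit were H1-1 with at most 4 counts in a library, H4C7 with 2 and H3C4 with 1, while H2AC1 and H2BC1 had none. Just above it were H3C3 with 10, H2BC8 with 12 and H1-6 with 14. An expression filter over all genes admitted 63 of the 65 histone genes to the tests and left out H2BC8 and H3C3.

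Histones package DNA: a nucleosome wraps DNA around a core of H2A, H2B, H3 and H4, and a linker histone, H1, binds where the DNA enters and leaves. The replication-dependent genes supply these proteins during S phase, when the cell copies its DNA. They are short, lack introns and lie in clusters, and most of their mRNAs end in a stem-loop in place of a poly(A) tail. The stem-loop is bound by SLBP, and the message is degraded when DNA synthesis ends. Libraries made by removing ribosomal RNA, as here, do not need a poly(A) tail to retain a message.

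Total RNA was sequenced from 2 lines. In the ΔOGT-ISS line, CRISPR-Cas9 had been used to delete an intronic splicing silencer of OGT, whose product attaches O-GlcNAc to proteins, and the other line was wild type (WT). Of the 2 libraries of a line, 1 received human IL-2 at 24 hours and 1 at 48 hours ahead of RNA extraction, in medium that the labels give as holding 20 ng/ml IL-2. The library titles name IL-2 for the 24 h libraries only, while the treatment labels give it for all 4, and the times below follow those labels. The study was designed to compare the expression profiles of the lines. With 1 edited line, an effect of the deletion and a difference between these cultures cannot be told apart. Nothing states that the libraries came from separate cultures, so the p-values below reflect the spread between the libraries alone, which may be technical. With 1 library for each line and time, that spread also holds any dependence of the line difference on time.

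The 4 libraries held 28576566 counts (ΔOGT-ISS, 24 h), 24809269 (WT, 24 h), 11305599 (ΔOGT-ISS, 48 h) and 10889986 (WT, 48 h). The 24 h libraries were deeper, so depth and time cannot be told apart by the design. OGT itself had 384 CPM in ΔOGT-ISS and 449 in WT cells at 24 h, and 399 in ΔOGT-ISS and 446 in WT cells at 48 h, and its line difference did not pass the test (log2 -0.19, SE 0.16, edgeR adjusted p = 0.862). Among 11 NK cell markers, 10 or 11 exceeded 1 CPM in each library. Of 6 myeloid markers, 3 or 4 exceeded 1 CPM. Their summed level was 47.4 CPM in ΔOGT-ISS and 315 in WT cells at 24 h. At 48 h it was 611 CPM in ΔOGT-ISS and 827 in WT cells. S100A9 made up most of the sum in each library, with 38.9 of the 47.4 CPM in ΔOGT-ISS cells at 24 h. None of these 6 was at 0 in all libraries. This sum was higher at 48 h than at 24 h and higher in WT cells at each time, and its part in the histone results was not tested. Of 7 T cell markers, 2 or 3 exceeded 1 CPM, mostly CD3E, and they summed to between 212 and 342 CPM. The 4 fibroblast markers summed to between 0.759 and 5.52 CPM, and of 5 B cell markers PAX5 gave nearly all of the 53.9 to 81.5 CPM. The 6 erythroid and platelet markers summed to under 1 CPM in every library and 3 of them were at 0 throughout.

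Histone messages formed a visible share of all counts. The 65 genes together took 1.99% of counts in ΔOGT-ISS and 2.19% in WT cells at 24 h, and 1.03% in ΔOGT-ISS and 0.773% in WT cells at 48 h. Both 24 h libraries were above both 48 h libraries in each family. H1 took the largest share of the 5 families in every library, with 0.530% and 0.566% in ΔOGT-ISS and WT cells at 24 h, and 0.385% and 0.287% in ΔOGT-ISS and WT cells at 48 h. H4 took 0.312% in ΔOGT-ISS and 0.349% in WT cells at 24 h, and 0.0969% in ΔOGT-ISS and 0.0897% in WT cells at 48 h. In a bulk sample, fewer cells in S phase and less histone RNA in each such cell cannot be told apart.

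**Figure D1:**
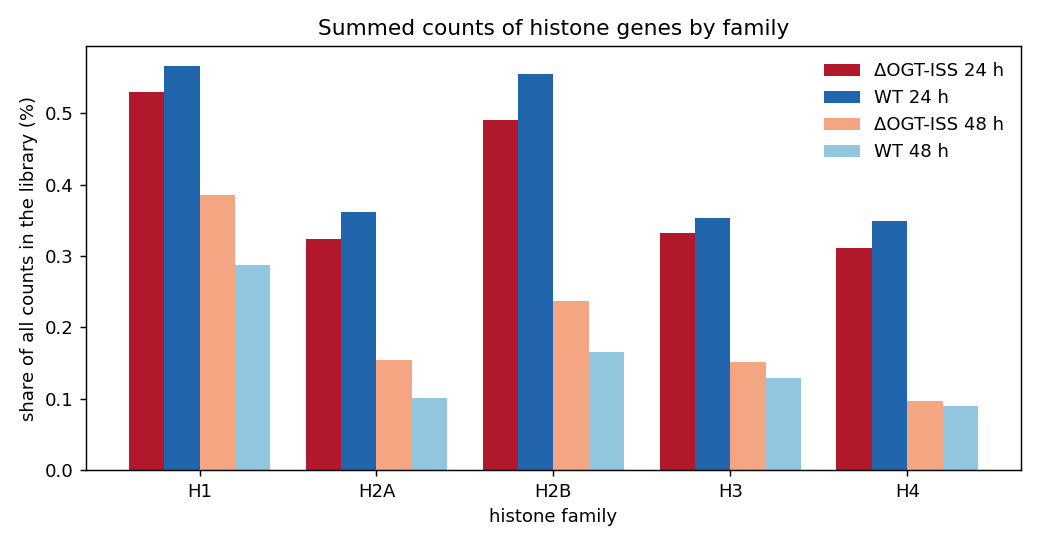
Share of all counts in each library (vertical axis, percent) taken by the histone genes of each family (horizontal axis), 1 bar per library. The 24 h bars exceed the 48 h bars in every family, and within the 48 h pair the ΔOGT-ISS bar is the higher, with the narrowest gap in H4.

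Per transcript length, measured as the authors' FPKM (fragments scaled by transcript length and library total), members of each family ranged widely in level. A mean of at least 10 FPKM was reached by 4 of 5 H1, 13 of 16 H2A, 14 of 18 H2B, 8 of 12 H3 and all 14 H4 genes. H1-5 was the most abundant H1 gene, with 2392 FPKM in ΔOGT-ISS and 2499.9 in WT cells at 24 h, and 1272 in ΔOGT-ISS and 1095 in WT cells at 48 h. H1-4 and H1-2 followed. H2AC11, H2AC6 and H2AC13 led the H2A genes, and H2BC12, H2BC4 and H2BC10 the H2B genes. H3C2, H3C7 and H3C10 led H3, and H4C3, H4C6 and H4C9 led H4. The weakest tested member, H1-6, a linker histone gene known from testis, had 0.435 FPKM in ΔOGT-ISS and 0.780 in WT cells at 24 h, and 0.245 in ΔOGT-ISS and 1.52 in WT cells at 48 h. The 65 genes lie on 4 chromosomes of hg38: 50 on chromosome 6, 13 on chromosome 1, H4C16 on chromosome 12 (14770720 to 14771131) and H2BC12L on chromosome 21 (43565182 to 43565648). Those on chromosome 6 fall between 26020451 and 27893891.

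**Figure D2:**
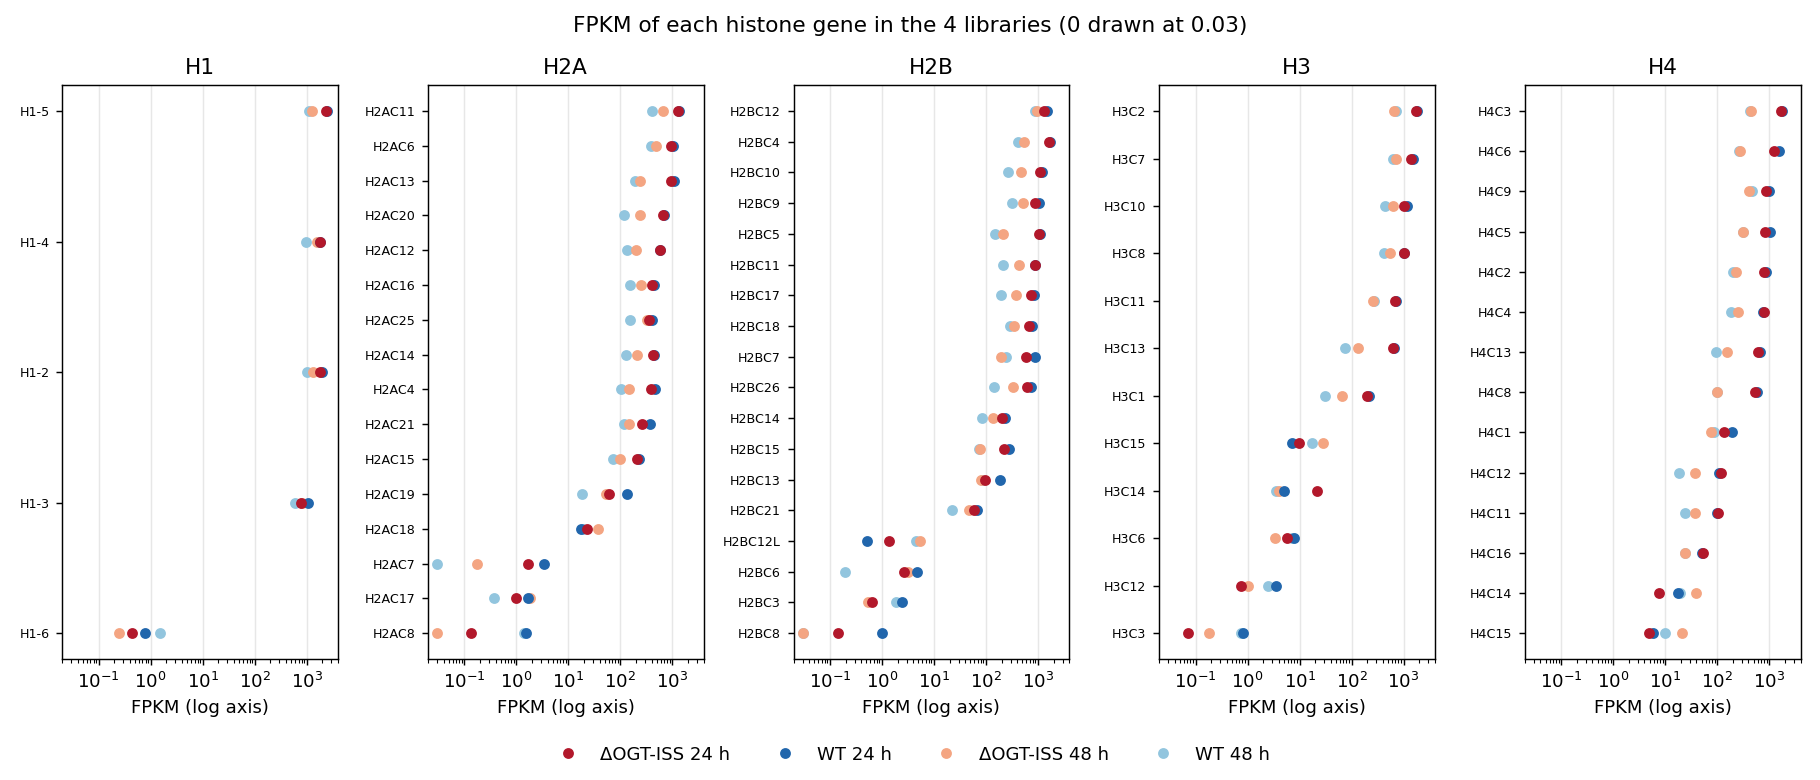
FPKM of each histone gene (horizontal log axis) in the 4 libraries, 1 panel per family with genes ordered by mean FPKM; 1 point per library, with values of 0 drawn at 0.03. The 24 h points lie to the right of the 48 h points for most abundant genes, while H3C15, H4C14 and H4C15 have their highest point in a 48 h library.

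The sequences below show the 3′ stem-loop that sets these mRNAs apart, with the stem and loop in capitals. A histone stem-loop pattern, read on the transcript strand, was found in the GENCODE v29 transcripts of 31 of the 65 genes. Of the other 34, 28 are annotated by GENCODE as coding sequence alone, so their transcripts stop before this point. Across the 19684 protein-coding genes, members included, 0.285% held a match. These were 56 genes, of which 25 are no members. The form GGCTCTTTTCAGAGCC was in 17 of the 31. The windows of the members below are given in DNA letters, 5′ to 3′.
H2AC13: ccaaaGGCTCTTTTCAGAGCCaccta
H2BC5: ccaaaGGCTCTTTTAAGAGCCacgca
H2BC4: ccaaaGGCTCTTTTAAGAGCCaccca
H3C10: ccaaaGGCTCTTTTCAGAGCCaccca
H3C15: caaaaGGCTCTTTTCAGAGCCaccca
H4C8: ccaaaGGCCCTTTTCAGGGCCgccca
H4C9: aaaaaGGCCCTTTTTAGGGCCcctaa
The H4 windows shown hold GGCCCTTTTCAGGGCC or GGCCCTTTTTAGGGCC, which none of the H2A, H2B and H3 windows shown holds. H2BC5 and H2BC4 carry the form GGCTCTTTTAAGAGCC, which 4 members hold.

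Promoters of the members were read from RefSeq (GRCh38.p14), 250 bases before to 50 bases after each start, and 59 members were in that table. The letters TATAAA were found, on either strand, in 64.4% of the 59 and 11.5% of all 35116 promoters. CCAAT was in 84.7% of the 59 and 34.6% of all, and in every H1, H2A, H2B and H3 promoter but only 3 of 12 H4 promoters. The octamer ATTTGCAT, the recognition sequence of POU2F1, was in 10 of 15 H2A and 13 of 17 H2B promoters, in no H1, H3 or H4 promoter, and in 1.77% of all. The sequences shown are those of the member of each family with the largest increase at 24 h among those that passed the test, followed by H2BC4, which carries all 3 motifs. Capitals mark the matches to these 3 motifs on either strand.
H1-5, chr6:27867539-27867838, minus strand: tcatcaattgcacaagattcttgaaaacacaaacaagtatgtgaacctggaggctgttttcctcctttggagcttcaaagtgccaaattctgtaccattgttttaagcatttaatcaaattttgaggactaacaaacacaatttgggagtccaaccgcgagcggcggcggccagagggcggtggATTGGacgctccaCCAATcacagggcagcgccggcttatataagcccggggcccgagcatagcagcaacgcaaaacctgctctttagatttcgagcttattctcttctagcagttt
H2AC13, chr6:27807923-27808222, plus strand: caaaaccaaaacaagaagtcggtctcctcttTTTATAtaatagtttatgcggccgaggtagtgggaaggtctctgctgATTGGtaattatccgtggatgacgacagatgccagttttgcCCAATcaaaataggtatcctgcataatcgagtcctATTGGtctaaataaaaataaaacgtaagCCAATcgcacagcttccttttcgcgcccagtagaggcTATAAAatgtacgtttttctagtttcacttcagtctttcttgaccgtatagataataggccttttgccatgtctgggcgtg
H2BC5, chr6:26157871-26158170, plus strand: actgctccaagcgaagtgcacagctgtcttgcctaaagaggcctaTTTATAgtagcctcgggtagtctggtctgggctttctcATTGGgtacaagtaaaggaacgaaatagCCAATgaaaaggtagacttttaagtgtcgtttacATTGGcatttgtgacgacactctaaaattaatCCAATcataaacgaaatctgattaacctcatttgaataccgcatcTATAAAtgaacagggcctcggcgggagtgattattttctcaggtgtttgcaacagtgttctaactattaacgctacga
H3C13, chr1:149813644-149813943, minus strand: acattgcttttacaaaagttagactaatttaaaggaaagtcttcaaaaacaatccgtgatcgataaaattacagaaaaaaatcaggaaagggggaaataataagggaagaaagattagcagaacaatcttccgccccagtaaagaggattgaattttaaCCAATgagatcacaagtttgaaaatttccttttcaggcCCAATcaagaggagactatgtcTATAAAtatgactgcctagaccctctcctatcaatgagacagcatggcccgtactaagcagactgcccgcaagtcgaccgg
H4C8, chr6:26285485-26285784, minus strand: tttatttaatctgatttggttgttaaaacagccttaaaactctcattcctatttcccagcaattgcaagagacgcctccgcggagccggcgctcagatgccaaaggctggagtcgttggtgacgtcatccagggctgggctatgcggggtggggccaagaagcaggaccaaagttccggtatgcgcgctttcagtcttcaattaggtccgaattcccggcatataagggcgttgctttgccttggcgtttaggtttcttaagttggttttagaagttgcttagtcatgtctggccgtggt
H2BC4, chr6:26123877-26124176, minus strand: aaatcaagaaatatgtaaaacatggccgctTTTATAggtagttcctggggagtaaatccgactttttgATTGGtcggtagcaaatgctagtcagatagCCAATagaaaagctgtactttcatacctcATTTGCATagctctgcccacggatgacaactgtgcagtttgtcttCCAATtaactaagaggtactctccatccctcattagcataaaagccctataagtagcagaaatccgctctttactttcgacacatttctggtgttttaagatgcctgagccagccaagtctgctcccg
The H4C8 window holds none of the 3 motifs, and H1-5 only CCAAT. H2BC4 shares most of its window with H2AC6, which is transcribed the other way from a start 246 bases off. The only TATAAA match of H2BC4 lies on the opposite strand, and the same stretch reads TATAAA in the H2AC6 window. Matches in such shared stretches count for both genes.

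The comparison of the IL-2 times showed higher histone messages in the 24 h libraries in each of the 5 families. Of 63 histone genes tested, 44 were higher at 24 h, 1 was lower and 18 did not pass (edgeR quasi-likelihood test, adjusted p under 0.05 over all genes), while 15.0% of all 17492 genes tested were higher and 10.9% were lower. At an unadjusted p under 0.05 the count in either direction was 54, against 38.8% of all genes. The median log2 fold change of the 63 was 1.32, against 0.07 over all genes. Of the 44, 40 differed by at least 2-fold and 8 by at least 4-fold. By family, 12 of 14 H4 genes were higher (median log2 1.76), 13 of 17 H2B genes (1.43), 10 of 16 H2A genes (1.34), 7 of 11 H3 genes (1.07) and 2 of 5 H1 genes (0.52). In 50 of 63 genes, or 79.4%, both 24 h libraries exceeded both 48 h libraries, against 34.8% of all genes.

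**Figure D3:**
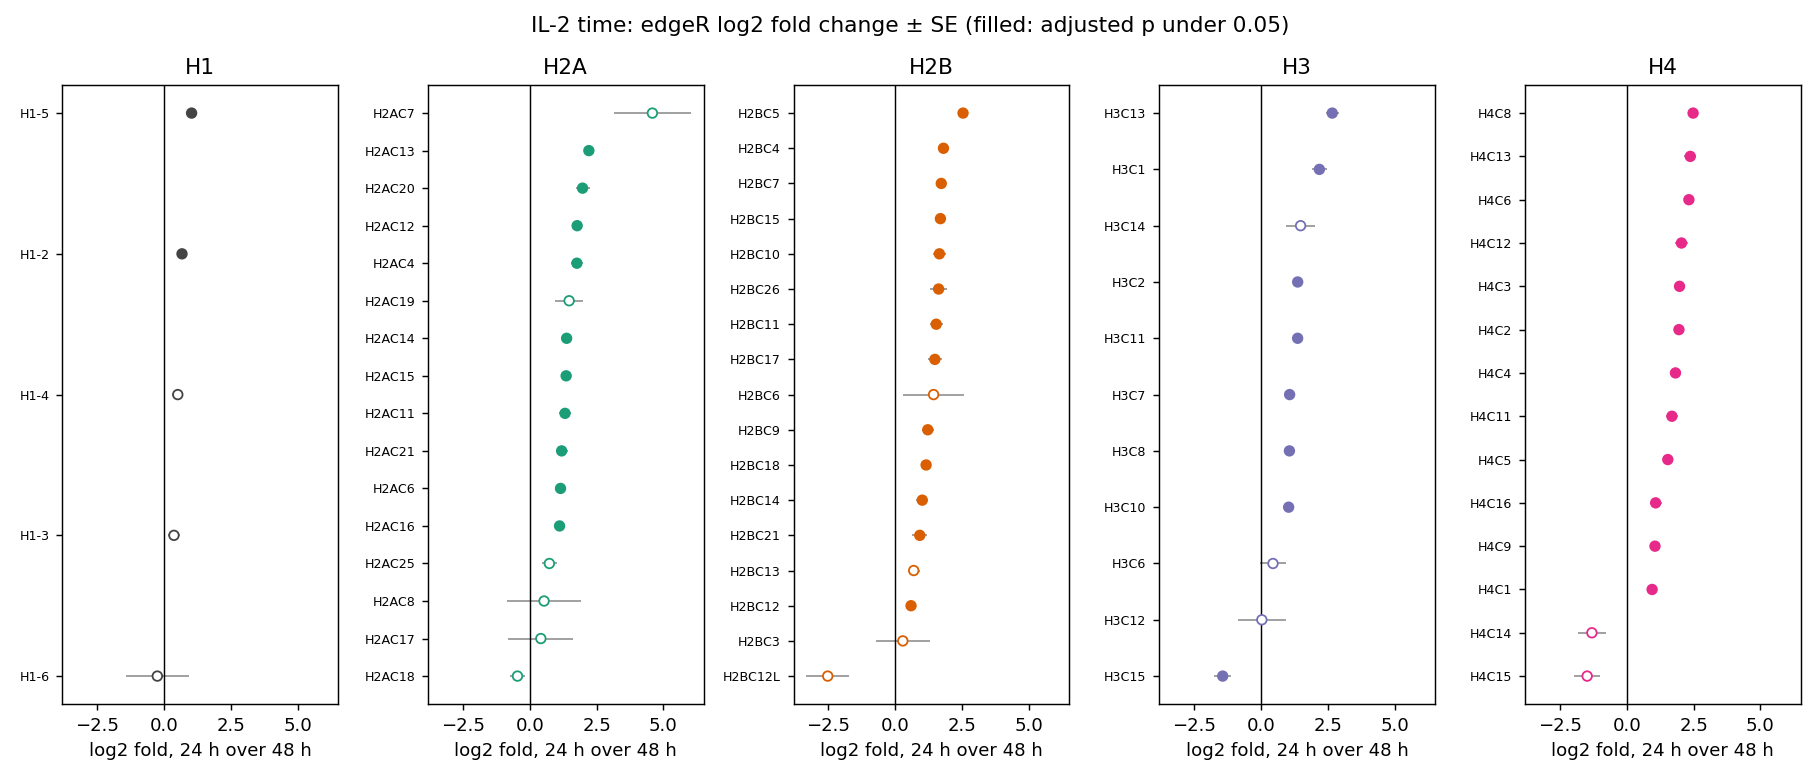
Log2 fold change of 24 h over 48 h for each tested histone gene (horizontal axis), 1 panel per family, with bars of 1 standard error; filled points passed the test at an adjusted p under 0.05. Filled points lie to the right of 0 except H3C15, and 12 of 14 H4 genes are filled on that side.

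H1 had the lowest median change. H1-5 was higher at 24 h (log2 1.03, SE 0.18, edgeR adjusted p = 0.00530), and its values, given above, separated the times by a factor of about 2.04. H1-2 had 1847 FPKM in ΔOGT-ISS and 1939 in WT cells at 24 h, and 1347 in ΔOGT-ISS and 1018 in WT cells at 48 h. It was higher at 24 h as well (log2 0.67, SE 0.19, edgeR adjusted p = 0.0326), with the WT 48 h library the lowest. H1-4 had 1826 FPKM in ΔOGT-ISS and 1791 in WT cells at 24 h, and 1563 in ΔOGT-ISS and 996 in WT cells at 48 h. Its 48 h value in ΔOGT-ISS cells was closer to the 24 h values than to WT cells at 48 h, and the time difference did not pass (log2 0.52, SE 0.20, edgeR adjusted p = 0.0953). With offsets for GC content and transcript length no H1 gene passed (H1-5 log2 0.48, edgeR adjusted p = 0.182; H1-2 log2 0.30, edgeR adjusted p = 0.410; H1-4 log2 -0.10, edgeR adjusted p = 0.825). H1-5 and H1-2 also missed the threshold with limma on log2 FPKM.

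Among the H2A genes, which encode core histones, H2AC13 changed most of those that passed. It had 944 FPKM in ΔOGT-ISS and 1103 in WT cells at 24 h, and 242 in ΔOGT-ISS and 195 in WT cells at 48 h, a 4.64-fold difference (log2 2.21, SE 0.19, edgeR adjusted p = 0.000508). The values of the 2 times did not overlap. Of the 75-base stretches in H2AC13 transcripts, 60.1% also occur in another gene. H2AC11, the most abundant H2A gene, had 1289 FPKM in ΔOGT-ISS and 1339.8 in WT cells at 24 h, and 659 in ΔOGT-ISS and 407 in WT cells at 48 h (log2 1.32, SE 0.21, edgeR adjusted p = 0.00383). H2AC6 had 928 FPKM in ΔOGT-ISS and 1058 in WT cells at 24 h, and 487 in ΔOGT-ISS and 396 in WT cells at 48 h (log2 1.15, SE 0.18, edgeR adjusted p = 0.00363). In both, WT cells at 48 h were the lowest library. The other 7 H2A genes that were higher had log2 fold changes between 1.12 (H2AC16) and 1.98 (H2AC20). H2AC7 had 25 counts in ΔOGT-ISS and 44 in WT cells at 24 h, and 1 in ΔOGT-ISS and 0 in WT cells at 48 h, and its WT level at 24 h was at least 6.30-fold higher than at 48 h, taking 3 counts as the limit of a library at 0. At these counts it did not pass (edgeR adjusted p = 0.0509).

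Among the H2B genes, H2BC5 changed most. H2BC5 had 1033 FPKM in ΔOGT-ISS and 1081 in WT cells at 24 h, and 218 in ΔOGT-ISS and 149 in WT cells at 48 h, a 5.78-fold difference (log2 2.53, SE 0.20, edgeR adjusted p = 0.000390). H2BC4 had 1604 FPKM in ΔOGT-ISS and 1742 in WT cells at 24 h, and 549.9 in ΔOGT-ISS and 408 in WT cells at 48 h (log2 1.80, SE 0.19, edgeR adjusted p = 0.000986). H2BC10 had 1095 FPKM in ΔOGT-ISS and 1198 in WT cells at 24 h, and 478 in ΔOGT-ISS and 271 in WT cells at 48 h (log2 1.65, SE 0.23, edgeR adjusted p = 0.00267). In all 3 genes the lines were closer to each other at 24 h than at 48 h, where ΔOGT-ISS cells were above WT cells. H2BC12, the most abundant H2B gene by mean FPKM, moved least of those that passed, with 1339 FPKM in ΔOGT-ISS and 1474 in WT cells at 24 h, and 981 in ΔOGT-ISS and 866 in WT cells at 48 h (log2 0.59, SE 0.17, edgeR adjusted p = 0.0372). It did not pass with the GC and length offsets (log2 -0.00, edgeR adjusted p = 0.994), and it missed the threshold with limma on log2 FPKM, with upper-quartile scaling and without a line term.

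H3 genes encode H3.1 or, on chromosome 1, H3.2. H3C13, which encodes H3.2, had the largest fold change of all members that passed, with 616 FPKM in ΔOGT-ISS and 649 in WT cells at 24 h, and 131 in ΔOGT-ISS and 73.5 in WT cells at 48 h (log2 2.66, SE 0.23, edgeR adjusted p = 0.000545). H3C1 had 197 FPKM in ΔOGT-ISS and 217 in WT cells at 24 h, and 64.5 in ΔOGT-ISS and 30.4 in WT cells at 48 h (log2 2.18, SE 0.28, edgeR adjusted p = 0.00184). Both separated the times without overlap. Of the 75-base stretches in H3C13 transcripts, 70.3% also occur in another gene. The abundant H3C2 had 1745 FPKM in ΔOGT-ISS and 1839 in WT cells at 24 h, and 656 in ΔOGT-ISS and 711 in WT cells at 48 h (log2 1.37, SE 0.16, edgeR adjusted p = 0.00140). H3C7 had 1387 FPKM in ΔOGT-ISS and 1493 in WT cells at 24 h, and 722 in ΔOGT-ISS and 632 in WT cells at 48 h (log2 1.07, SE 0.17, edgeR adjusted p = 0.00372), and H3C10 had 1030.1 FPKM in ΔOGT-ISS and 1157 in WT cells at 24 h, and 622 in ΔOGT-ISS and 444 in WT cells at 48 h (log2 1.03, SE 0.20, edgeR adjusted p = 0.00785). H3C7 missed the threshold with the GC and length offsets (log2 0.51, edgeR adjusted p = 0.111), and both missed it with limma on log2 FPKM. H3C15, also an H3.2 gene, was the single member that was lower at 24 h, with 9.67 FPKM in ΔOGT-ISS and 7.08 in WT cells at 24 h, and 28.4 in ΔOGT-ISS and 17.0 in WT cells at 48 h (log2 -1.43, SE 0.31, edgeR adjusted p = 0.0132). All of its 75-base stretches also occur in another gene, so its reads cannot be told apart from those of its copy by sequence alone.

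H4 genes all encode the same protein, apart from H4C7, which was below the count limit, and as a family they changed most. H4C8 had 523 FPKM in ΔOGT-ISS and 591 in WT cells at 24 h, and 98.0 in ΔOGT-ISS and 97.9 in WT cells at 48 h, a 5.60-fold difference (log2 2.48, SE 0.17, edgeR adjusted p = 0.000251). H4C13 had 596 FPKM in ΔOGT-ISS and 670.0 in WT cells at 24 h, and 153 in ΔOGT-ISS and 93.3 in WT cells at 48 h (log2 2.38, SE 0.23, edgeR adjusted p = 0.000737). H4C6 had 1252 FPKM in ΔOGT-ISS and 1524 in WT cells at 24 h, and 276 in ΔOGT-ISS and 267 in WT cells at 48 h (log2 2.33, SE 0.17, edgeR adjusted p = 0.000332). The times stood apart in each of these genes, and the lines at 48 h were close in H4C8 and H4C6. H4C3, the most abundant, had 1724 FPKM in ΔOGT-ISS and 1757 in WT cells at 24 h, and 444 in ΔOGT-ISS and 428 in WT cells at 48 h (log2 1.98, SE 0.16, edgeR adjusted p = 0.000482), and H4C9, with 865 FPKM in ΔOGT-ISS and 1003 in WT cells at 24 h, and 418 in ΔOGT-ISS and 465 in WT cells at 48 h, changed less (log2 1.06, SE 0.16, edgeR adjusted p = 0.00301). H4C12 was higher by 4.14-fold (log2 2.05, SE 0.26, edgeR adjusted p = 0.00162), though it shares all of its 75-base stretches with another gene. H4C14 and H4C15 went the other way without passing the test (log2 -1.30 and -1.48, edgeR adjusted p = 0.106 and 0.0610).

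The time difference appeared in each line taken alone. Within ΔOGT-ISS cells the 95% counting interval of the ratio of 24 h over 48 h lay above 1 in 51 of 63 genes and below 1 in 6, against 35.2% and 33.8% of all genes tested. Within WT cells it lay above 1 in 52 genes and below 1 in 3, against 37.6% and 32.4%. These intervals are exact binomial ones and cover counting error only. They narrow as counts rise, and the shares over all genes were not matched for counts. All 44 genes that were higher had intervals above 1 in both lines. They were picked by a test on these same libraries that favours genes rising in both lines, so this is no separate support. Over all 65 genes the summed level at 24 h was 1.93 times (interval 1.92 to 1.94) that at 48 h in ΔOGT-ISS cells, and 2.77 times (2.75 to 2.79) in WT cells. H4 had the largest ratio in both lines, 3.20 in ΔOGT-ISS and 3.81 in WT cells, and H1 the smallest, 1.37 in ΔOGT-ISS and 1.93 in WT cells. Of the 44 genes, 42 had the larger ratio in WT cells. Over all genes tested, which were not selected in this way, the ratio was larger in WT cells for 52.2%. A larger time ratio in WT cells is the same quantity as a lower line ratio at 24 h, so the shift of the line ratio given below is no separate result.

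Adding offsets for transcript composition changed several calls. With smooth offsets for GC content and transcript length, fitted without the histone genes, 37 of 63 were higher and 3 lower, and the median log2 fold change was 1.08. In that fit 7.24% of all genes were higher and 7.69% lower. By family the counts were then 11 of 14 H4, 12 of 17 H2B, 8 of 16 H2A, 6 of 11 H3 and 0 of 5 H1 genes. The 7 genes that lost their call were H1-2, H1-5, H2AC16, H2AC21, H2BC12, H3C7 and H4C1. GC content came from the longest GENCODE v29 transcript of each gene. For 28 of the 65 histone genes this is the coding sequence alone, so their GC content leaves out the rest of the message. No stem-loop was found in the GENCODE transcripts of these 7 genes or of any H1 gene. The part of this annotation in the lost calls was not tested. Across the 63 genes Spearman's rho between the log2 fold change and transcript length was -0.32, and with GC content it was 0.07, as a description of genes that share these libraries.

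Of the 6 tested histone genes with a log2 fold change below 0, 5 share over 90% of their sequence with another gene. A read that fits several genes may be dropped or split in counting, and the setting used is not given in the sources used here. Of 44 tested genes with under 5% of their 75-base stretches found in another GENCODE gene, 35 were higher and none was lower at 24 h (edgeR quasi-likelihood test; median log2 1.27). Of the 9 genes that share over 90%, 1 was higher and 1 lower (median log2 -0.45). The 10 genes between these limits, H2AC13 and H3C13 among them, had 8 higher and none lower (median log2 1.43). These limits of 5% and 90% were chosen after the values were seen. Counts were also low in the set that shares over 90%, and of 10 tested genes with under 100 counts in every library none passed. The part of low counts in that contrast was not tested.

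**Figure D4:**
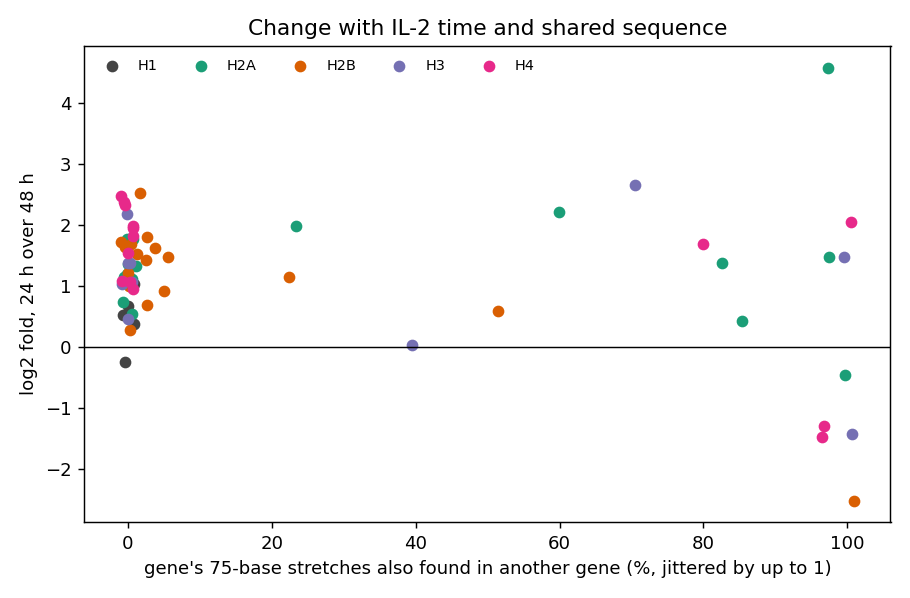
Log2 fold change of 24 h over 48 h (vertical axis) against the percentage of a gene's 75-base stretches that also occur in another gene (horizontal axis), 1 point per tested histone gene, coloured by family. Points under 5% lie at or above 0 apart from H1-6, while those over 90% spread from -2.53 (H2BC12L) to 4.59 (H2AC7).

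On chromosome 1 a duplicated segment holds the pairs H2AC18 and H2AC19, H3C14 and H3C15, and H4C14 and H4C15, whose members are nearly identical. Summed over the pair, H2AC18 and H2AC19 had 1289 counts in ΔOGT-ISS and 2039 in WT cells at 24 h, and 544 in ΔOGT-ISS and 220 in WT cells at 48 h. H3C14 and H3C15 together had 467 counts in ΔOGT-ISS and 155 in WT cells at 24 h, and 190 in ΔOGT-ISS and 116 in WT cells at 48 h. H4C14 and H4C15 together had 140 counts in ΔOGT-ISS and 228 in WT cells at 24 h, and 272 in ΔOGT-ISS and 126 in WT cells at 48 h. The H2A pair's ratio of 24 h over 48 h was 0.933 (0.843 to 1.03) in ΔOGT-ISS and 3.98 (3.46 to 4.59) in WT cells. The H3 pair's was 0.967 (0.816 to 1.15) in ΔOGT-ISS and 0.574 (0.448 to 0.736) in WT cells. The H4 pair's was 0.203 (0.164 to 0.249) in ΔOGT-ISS and 0.777 (0.622 to 0.974) in WT cells. Summed over the 2 copies, the H3 and H4 pairs therefore stayed below the ratios of their whole families, 2.19 and 3.20 in ΔOGT-ISS and 2.66 and 3.81 in WT cells for H3 and H4.

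Head-to-head pairs were sought among the 59 members whose promoters were read. In 11 pairs found there, 2 members are transcribed away from each other from starts within 1000 bases. Of these, 10 pair an H2A with an H2B gene across 194 to 248 bases, and H3C7 faces H2BC9 across 979 bases. H2AC12 was not among the 59 and was not searched, though its span begins at 27147106, close to where that of H2BC12 ends (27146858). Within a pair, partners often differed in abundance. H2AC13 had a log2 fold change of 2.21 in the time contrast and its partner H2BC13 one of 0.69. H2BC7 averaged 226 CPM over the libraries and its partner H2AC7 0.684 CPM, and H2BC17 averaged 250 CPM and H2AC17 0.590 CPM. The levels of H2AC7 and H2AC17 are uncertain, since 97.8% and 85.3% of their 75-base stretches also occur in other genes and the counting of such reads is not given. H2BC11 and H2AC11 moved alike, with log2 fold changes of 1.53 and 1.32.

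The comparison of the lines gave no histone gene past the test. Of 63 genes, 0 were higher and 0 lower in ΔOGT-ISS cells over both times (edgeR quasi-likelihood test with a time term), while 0.149% of all genes tested were higher and 0.314% lower. At an unadjusted p under 0.05 edgeR counted 3 of the 63, against 9.08% of all genes, and DESeq2 counted 2, against 6.30%. DESeq2 also called 0 after adjustment. The median log2 ratio of ΔOGT-ISS over WT was 0.11, against 0.02 over all genes. This ratio averages over the 2 times, at which many members differed in opposite directions, and the fit has 1 residual degree of freedom. That residual holds any dependence of the line difference on time, so the opposite directions enter the spread that the test uses.

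H2BC7 had the smallest adjusted p and is named for that value, with 593 FPKM in ΔOGT-ISS and 879.6 in WT cells at 24 h, and 194 in ΔOGT-ISS and 242 in WT cells at 48 h (log2 -0.49, SE 0.16, edgeR adjusted p = 0.348). It was lower in ΔOGT-ISS cells than in WT cells at both times. The lowest log2 ratios belonged to genes with few counts, which are given here unscaled, so that the lines are to be compared within a time. H2AC8 had 2 counts in ΔOGT-ISS and 20 in WT cells at 24 h, and 0 in ΔOGT-ISS and 8 in WT cells at 48 h, so that its level in ΔOGT-ISS cells was 0.0849 (95% interval 0.00962 to 0.350) times that in WT cells at 24 h and at least 2.88-fold lower at 48 h, with 3 counts as the limit of a library at 0. H2BC3 had 9 counts in ΔOGT-ISS and 29 in WT cells at 24 h, and 3 in ΔOGT-ISS and 10 in WT cells at 48 h (log2 -1.87, SE 1.03, edgeR adjusted p = 0.707). H3C12 had 11 counts in ΔOGT-ISS and 44 in WT cells at 24 h, and 6 in ΔOGT-ISS and 14 in WT cells at 48 h (log2 -1.81, SE 0.88, edgeR adjusted p = 0.630), and H1-6 9 counts in ΔOGT-ISS and 14 in WT cells at 24 h, and 2 in ΔOGT-ISS and 12 in WT cells at 48 h (log2 -1.62, SE 1.17, edgeR adjusted p = 0.830). These genes were lower in ΔOGT-ISS cells at both times, at counts where no test passed. H2BC6-AS1, the antisense RNA, had 16 counts in ΔOGT-ISS and 25 in WT cells at 24 h, and 2 in ΔOGT-ISS and 20 in WT cells at 48 h. Its span on chromosome 6 (26160274 to 26172773) overlaps that of H2BC5 (26158121 to 26171349) and not that of H2BC6 (26183761 to 26184230). The use of strand in counting is not given in the sources used here, and its part in the counts of H2BC6-AS1 and H2BC5 was not tested.

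The highest log2 ratios were likewise short of the threshold. H3C14 had 324 counts in ΔOGT-ISS and 64 in WT cells at 24 h, and 24 in ΔOGT-ISS and 20 in WT cells at 48 h (log2 1.27, SE 0.55, edgeR adjusted p = 0.560), with the excess in the ΔOGT-ISS library at 24 h. H2AC18 had 344 counts in ΔOGT-ISS and 231 in WT cells at 24 h, and 223 in ΔOGT-ISS and 112 in WT cells at 48 h (log2 0.60, SE 0.26, edgeR adjusted p = 0.562), above WT cells at both times. H2BC12L had 18 counts in ΔOGT-ISS and 6 in WT cells at 24 h, and 29 in ΔOGT-ISS and 23 in WT cells at 48 h (log2 0.72, SE 0.79, edgeR adjusted p = 0.918), and H2BC6 35 counts in ΔOGT-ISS and 56 in WT cells at 24 h, and 17 in ΔOGT-ISS and 1 in WT cells at 48 h (log2 0.69, SE 1.14, edgeR adjusted p = 0.950). H3C14, H2AC18 and H2BC12L share all of their 75-base stretches with another gene.

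Taken at each time, the lines differed in opposite directions. At 24 h the counting interval of the ratio of ΔOGT-ISS over WT lay below 1 in 49 of 63 genes and above 1 in 3, against 23.7% and 23.9% of all genes tested. At 48 h it lay above 1 in 42 and below 1 in 7, against 25.5% and 24.7%. In 33 genes, or 52.4%, the interval was below 1 at 24 h and above 1 at 48 h, against 4.35% of all genes, and 0 showed the reverse, against 5.16%. Such intervals exclude 1 more readily at high counts, and the shares over all genes were not matched for counts. The log2 ratio was lower at 24 h in 56 of 63 genes, by a median of -0.54, against 52.2% of all genes and a median of -0.03. The summed level in ΔOGT-ISS cells was 0.889 times that in WT cells at 24 h (interval 0.886 to 0.893) and 1.28 times at 48 h (1.27 to 1.29). With 1 library for each line and time, the dependence of the line ratio on time has no test.

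The families differed in size at 48 h. H2A in ΔOGT-ISS cells stood at 1.48 times the WT level (interval 1.44 to 1.51), H2B at 1.38 times (1.36 to 1.41), H1 at 1.29 times (1.27 to 1.31), H3 at 1.12 times (1.10 to 1.15) and H4 at 1.04 times (1.01 to 1.07). At 24 h the 5 ratios lay between 0.863 (H2B) and 0.920 (H3). The interval lay above 1 at 48 h in 13 of 16 H2A, 12 of 17 H2B, 4 of 5 H1, 6 of 11 H3 and 7 of 14 H4 genes. H2AC11 illustrates the H2A genes: the ratio of ΔOGT-ISS over WT was 0.941 (95% interval 0.921 to 0.961) at 24 h and 1.56 (95% interval 1.48 to 1.64) at 48 h. For H2BC10 it was 0.894 (95% interval 0.874 to 0.915) at 24 h and 1.69 (95% interval 1.59 to 1.81) at 48 h. For H4C3 it was 0.960 (95% interval 0.940 to 0.979) at 24 h and 0.997 (95% interval 0.936 to 1.06) at 48 h, where the interval spans 1.

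**Figure D5:**
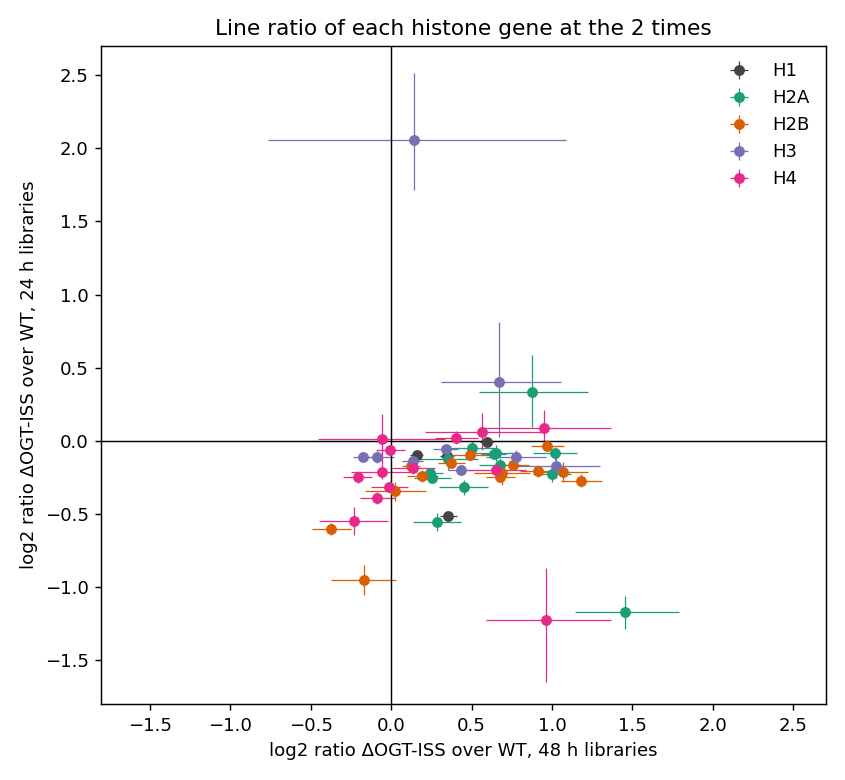
Log2 ratio of ΔOGT-ISS over WT in the 24 h libraries (vertical axis) against the same ratio in the 48 h libraries (horizontal axis) for the 53 tested histone genes with at least 100 counts in a library, with 95% counting intervals, coloured by family. Most points lie below 0 on the vertical and above 0 on the horizontal axis; H3C14 stands alone near the top.

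The largest shifts of the line ratio between times came with shared sequence or few counts. H2AC19 had 945 counts in ΔOGT-ISS and 1808 in WT cells at 24 h, and 321 in ΔOGT-ISS and 108 in WT cells at 48 h, and its log2 line ratio at 24 h minus that at 48 h was -2.62, while its copy H2AC18 was above WT at both times. H2BC6 (-3.85) and H2AC17 (-2.38, with 14 counts in ΔOGT-ISS and 20 in WT cells at 24 h, and 10 in ΔOGT-ISS and 2 in WT cells at 48 h) had under 100 counts in every library. In the other direction, H3C14 (log2 difference 1.92), H1-6 (1.45) and H2BC12L (0.84) had the higher line ratio at 24 h.

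Genes that make, carry or accompany histones were described beside the members, and the examples were picked with their values known. Of 24 tested genes for histone mRNA transcription and 3′ processing, 3 were higher and 7 lower at 24 h (edgeR; median log2 -0.22), and 2 were higher and 5 lower with the GC and length offsets (median -0.16). Over all genes tested, 15.0% were higher and 10.9% lower, and with those offsets 7.24% and 7.69%. SLBP, which binds the stem-loop, had 182 CPM in ΔOGT-ISS and 133 in WT cells at 24 h, and 200.3 in ΔOGT-ISS and 188 in WT cells at 48 h and did not pass (log2 -0.31, SE 0.17, edgeR adjusted p = 0.202). NPAT, the coactivator of histone gene transcription, had 54.8 CPM in ΔOGT-ISS and 69.9 in WT cells at 24 h, and 84.2 in ΔOGT-ISS and 64.6 in WT cells at 48 h (log2 -0.26, SE 0.21, edgeR adjusted p = 0.404). SLBP was lower at 24 h in each line, while NPAT was lower at 24 h in ΔOGT-ISS cells and higher in WT cells. Neither time difference passed the test. ERI1, an exonuclease that trims histone mRNA ends, was lower at 24 h, with 62.5 CPM in ΔOGT-ISS and 87.9 in WT cells at 24 h, and 112 in ΔOGT-ISS and 311 in WT cells at 48 h (log2 -1.34, SE 0.24, edgeR adjusted p = 0.00636). CPSF3, the endonuclease that cuts at the 3′ end, was lower too (log2 -1.03, SE 0.16, edgeR adjusted p = 0.00359). CRAMP1, needed for linker histone gene expression, was higher, with 32.3 CPM in ΔOGT-ISS and 33.0 in WT cells at 24 h, and 12.4 in ΔOGT-ISS and 9.18 in WT cells at 48 h (log2 1.61, SE 0.22, edgeR adjusted p = 0.00245). No gene of this list passed in the line comparison.

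Of 9 tested replication-independent histone variants, 5 were higher at 24 h and none lower (edgeR; median log2 0.66), and 4 were higher and none lower with the GC and length offsets (median 0.42). The shares over all genes were 15.0% higher and 10.9% lower, and 7.24% and 7.69% with those offsets. H2AX, which marks DNA breaks when phosphorylated and whose gene yields a stem-loop mRNA as well as a polyadenylated one, had 405 CPM in ΔOGT-ISS and 382 in WT cells at 24 h, and 93.1 in ΔOGT-ISS and 83.6 in WT cells at 48 h (log2 2.16, SE 0.16, edgeR adjusted p = 0.000336). The times lay apart by a 4.46-fold difference, in the range of the members, which fell to log2 0.72 with the GC and length offsets (edgeR adjusted p = 0.0250). H2AZ1, a variant used outside S phase, had 344 CPM in ΔOGT-ISS and 323 in WT cells at 24 h, and 301 in ΔOGT-ISS and 307 in WT cells at 48 h (log2 0.13, SE 0.16, edgeR adjusted p = 0.571). H3-3B, an H3.3 gene, did not pass either (log2 0.22, SE 0.16, edgeR adjusted p = 0.347).

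Among 22 histone chaperones, 6 were higher and 4 lower at 24 h (edgeR; median log2 0.10). With the GC and length offsets 2 were higher, ASF1B and HJURP, and 2 were lower, NAP1L1 and MCM2 (median -0.0012). All genes tested had 15.0% higher and 10.9% lower, and 7.24% and 7.69% with those offsets. ASF1B, which carries H3 and H4 to newly copied DNA, was higher, with 119 CPM in ΔOGT-ISS and 139 in WT cells at 24 h, and 45.6 in ΔOGT-ISS and 42.6 in WT cells at 48 h (log2 1.55, SE 0.17, edgeR adjusted p = 0.00106). NAP1L1, a carrier of H2A and H2B, was lower, with 469.7 CPM in ΔOGT-ISS and 402 in WT cells at 24 h, and 1229 in ΔOGT-ISS and 1485 in WT cells at 48 h (log2 -1.64, SE 0.19, edgeR adjusted p = 0.00130). NASP, which protects the pool of H3 and H4, did not pass (log2 -0.03, SE 0.16, edgeR adjusted p = 0.898).

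Of 36 S phase genes, 11 were higher and 3 lower at 24 h (edgeR; median log2 0.08). With the GC and length offsets 3 were higher, TYMS, E2F8 and GINS1, and MCM2 was lower (median -0.06). The all-gene shares were 15.0% higher and 10.9% lower, and 7.24% and 7.69% with those offsets. TYMS, which makes thymidylate, had 84.2 CPM in ΔOGT-ISS and 85.2 in WT cells at 24 h, and 37.3 in ΔOGT-ISS and 37.2 in WT cells at 48 h (log2 1.19, SE 0.16, edgeR adjusted p = 0.00232). PCNA, the sliding clamp of DNA polymerase, was lower, with 284 CPM in ΔOGT-ISS and 226 in WT cells at 24 h, and 441 in ΔOGT-ISS and 331 in WT cells at 48 h (log2 -0.59, SE 0.16, edgeR adjusted p = 0.0274). MCM6, a helicase subunit, was lower as well (log2 -0.66, SE 0.16, edgeR adjusted p = 0.0181). Neither PCNA nor MCM6 passed with the GC and length offsets (log2 -0.27 and -0.43, edgeR adjusted p = 0.374 and 0.157). The list had 11 of 36 genes higher at 24 h, beside 44 of 63 histone genes, and with those offsets 3 of 36 beside 37 of 63, and the difference of these shares was not tested. In the line comparison none of the 4 lists had a gene past the test.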

How the data were processed

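Total RNA of 4 NK-92 samples went through ribosomal RNA depletion (RiboCop) and CORALL V2 library preparation, per the labels' protocols. The deposited tables give counts per gene and FPKM with transcript length, and the submitters' processing notes name HISAT2 2.2.0, SAMtools 1.15.1, featureCounts 2.0.1 and hg38. The use of strand, multi-mapping reads and molecular identifiers is not given in the sources used here. The authors' FPKM were used as deposited for levels between genes, with the deposited transcript length as covariate, and the authors' counts for tests.

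Counts of 17492 genes that passed edgeR's filterByExpr (minimum count 10) were fitted with edgeR 4.0.16 (R 4.3.3; TMM scaling, quasi-likelihood test, terms for time and line, 1 residual degree of freedom), and p-values were adjusted by Benjamini-Hochberg over all of them. CPM are counts scaled to the TMM-adjusted library total. Ratios of 2 libraries carry exact 95% binomial intervals (scipy 1.17.1), which cover counting error only. The fit was also run on simulated counts with line differences in some genes, but no time difference and no dependence of the line difference on time. That run therefore does not show how the fit behaves with the time differences seen here.

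Alternatives used DESeq2 1.42.0 (size factors or test), library size or upper-quartile scaling, no filter, models without a term, limma 3.58.1 on log2(FPKM + 1) and log2(FPKM + 0.1), offsets for GC content and length (splines with 5 degrees of freedom), and, added after seeing the data, thinning of the 24 h libraries and a restriction to genes of nearly unique sequence. Groups came from the labels, with 1 library for each line and time. Members, lists and tests were chosen with earlier results of these data known. Named members are the up to 8 with the largest change past the test in each direction (otherwise the 4 largest), the 3 of each family with the highest mean FPKM, and the 3 with the largest shift of the line ratio each way. Stem-loops and shared stretches of 75 bases came from GENCODE v29, and promoters from RefSeq GRCh38.p14.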

Additional observations from a re-analysis of the deposited data

Results flagged for a closer look

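The ratio of ΔOGT-ISS over WT differed between the IL-2 times with opposite signs for the summed histone level and for several members, below 1 at 24 h and above 1 at 48 h; these differences rest on 1 library for each line and time and were not tested. The log2 ratio at 24 h minus that at 48 h was -0.52 for all 65 histone genes summed, -0.50 for H1, -0.76 for H2A, -0.68 for H2B, -0.28 for H3 and -0.25 for H4. Among the H1 and H2A genes named in the text it was -0.45 for H1-2, -0.26 for H1-5, -0.73 for H2AC11, -0.51 for H2AC13, -0.46 for H2AC6 and -2.62 for H2AC19. Among the H2B genes it was -0.92 for H2BC10, -0.29 for H2BC12, -0.53 for H2BC4, -0.59 for H2BC5 and -3.85 for H2BC6. For H3 and H4 genes it was -1.20 for H3C1, -0.63 for H3C10, -0.88 for H3C13, -0.27 for H3C7 and -0.85 for H4C13. The S100A9-led myeloid sum reported above moved with time and line as well, and its part in these values was not tested.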

How the results depend on the processing

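The count of histone genes higher at 24 h, reported as 44, lay between 35 and 52 under the alternatives run. The 35 came from genes of nearly unique sequence (35 of 44 tested). The 52 came from counting intervals in WT cells alone, beside 51 in ΔOGT-ISS cells alone, and the fit without a filter gave 50. These counts are not like for like, since the nearly unique set has fewer genes and the intervals are no test. Among H1 genes the count fell from 2 to 0 of 5 with the GC and length offsets. The count of genes lower at 24 h, reported as 1, was 3 with the 24 h libraries thinned, DESeq2 size factors, GC and length offsets, either limma fit, upper-quartile scaling or in WT cells alone, 6 in ΔOGT-ISS cells alone, 2 without a filter and 0 among genes of nearly unique sequence. The line comparison gave 0 histone genes in each direction in every fit, while intervals at single times gave 3 above and 49 below at 24 h, and 42 above and 7 below at 48 h. Over all genes, calls in the line comparison ranged widely: 26 higher and 55 lower as reported, 90 and 213 with DESeq2, 75 and 170 with the GC and length offsets, 168 and 378 without a filter on low counts, and 0 and 0 with limma or without a time term. In the time comparison the all-gene calls were 2625 higher and 1910 lower, and 1267 and 1346 with those offsets. The sign turned negative for H1-4 (log2 -0.10, SE 0.24, edgeR adjusted p = 0.825) and H2BC12 (-0.0036, SE 0.21, edgeR adjusted p = 0.994) with those offsets. Both values were smaller than their SE, so they show no difference in the other direction. For DESeq2 size factors, library size, upper-quartile scaling and sums without the most abundant member of each family, the summed ratio of ΔOGT-ISS over WT was 0.894, 0.909, 0.899 and 0.877 at 24 h, and 1.25, 1.33, 1.31 and 1.34 at 48 h. The ratio of 24 h over 48 h was 2.66, 2.83, 2.64 and 2.89 in WT cells, and in ΔOGT-ISS cells 1.90, 1.81 and 1.90 with DESeq2 size factors, upper-quartile scaling and those sums. The causes were not tested. Families summed before the fit were not run as a test. No further pairing was possible because the labels give no replicate numbers and each line and time has 1 library. The line term already sets the times against each other within a line, and 41 histone genes were higher at 24 h without it. Leaving out a library would leave no residual degree of freedom. Among genes under 100 counts in every library no histone gene passed.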
